A study of Mus musculus with 4 samples.

Results

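The genes described here encode 9 transcription factors of epithelial development in 3 families: the AP-2 factors Tfap2a, Tfap2b, Tfap2c and Tfap2e, the Grainyhead-like factors Grhl1, Grhl2 and Grhl3, and the OVO-like zinc finger factors Ovol1 and Ovol2. They were chosen by name, and each was found in the RefSeq gene table of the mouse genome (GRCm38.p6), among 21440 protein-coding genes with a known strand. Open chromatin at these genes was read from bulk ATAC-seq, in which the Tn5 transposase cuts accessible DNA, of submandibular salivary gland organoids (mSGOs) from C57BL/6 mice. The 4 samples were non-irradiated organoids grown in Matrigel in WRY medium, which holds conditioned media with Wnt3a and R-spondin1, EGF, FGF2, dexamethasone and Y27632. Passage 1 and passage 2 were each represented by 1 sample labelled with an age of 12 weeks and 1 labelled with an age of 3 months. The authors deposited 1 list of regions for the series, which was taken to be pooled over the 4 samples. Its number of regions differs from the number of peaks that the authors give for their consensus, so this assumption is not settled. With 1 list, no region has a value per sample, the depth of each sample and the spread between replicates are unknown, and no difference between passages or ages could be tested.

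The AP-2 factors bind a GC-rich palindrome as dimers and act in ectoderm, neural crest, skin and mammary epithelium. Grainyhead factors bind their own motif, which they can open in closed chromatin, and switch on genes of cell junctions and of the epithelial barrier. OVOL factors are mostly repressors that keep mesenchymal regulators, among them the Zeb genes, silent in epithelial cells. An open region at a gene is a place where regulatory proteins may bind. It does not measure transcription, and in a mixed organoid a weak region in all cells and a strong region in few cells cannot be told apart.

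Each region of the list carries a fold, the signal at its summit over the local background, and an IDR score, which is higher where replicates rank a region more alike and stops at 1000. The list held 32011 distinct regions with a median fold of 7.11 (quartiles 5.70 and 9.32), and 45.1% of them reached an IDR score of 1000. A region was counted at a gene's 5′ end where its midpoint lay within 1 kb of the outermost start of the gene. It was called distal where it lay over 1 kb from the outermost 5′ end of every coding gene, and was then given to the gene with the nearest one. A distal region can thus lie inside a gene or at an inner start site. Open regions stood at 5 of the 9 5′ ends, those of Tfap2a, Grhl1, Grhl2, Ovol1 and Ovol2, beside 38.3% of all coding genes. Among the 16006 regions with the strongest q-values this fell to 2 of the 9 (Grhl1 and Grhl2), beside 25.9% of coding genes, and among regions with an IDR score of 1000 to 2 of the 9, beside 24.0%. Inside the gene, 4 of the 9 held a region (Tfap2a, Tfap2c, Grhl1 and Grhl2), beside 39.5% of all coding genes. Distal regions were nearest to 7 of the 9, all but Tfap2e and Ovol2, beside 40.3% of all coding genes. The median number of distal regions was 3 over the 9 genes and 0 over all coding genes, for which the mean was 1.11.

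**Figure D1:**
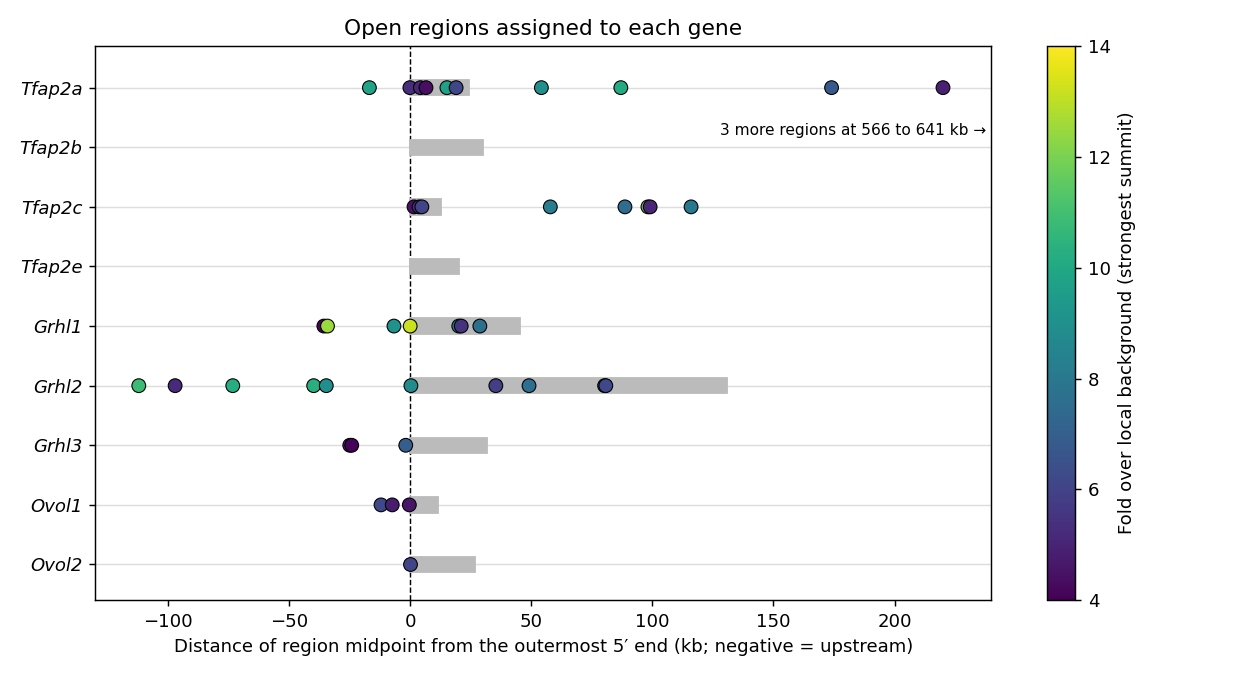
Position of every open region given to each of the 9 genes, as distance in kb from the outermost 5′ end of the gene (negative, upstream); each point is 1 region of the deposited list, coloured by its fold, grey bars are the genes, and points that lie close together overlap. Regions of Tfap2a and Tfap2c lie mostly downstream of the 5′ end, those of Grhl2 lie on both sides, the 3 regions of Tfap2b at 566 to 641 kb are noted off the axis, and Tfap2e has none.

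The sequences of 4 start sites are shown because they span the range seen at these genes, from a start wholly inside a strong region to a start with no region near it. They run from 250 bases before to 50 bases after a start site of the RefSeq promoter table (GRCm38.p6), 5′ to 3′ on the strand of the gene. Capitals mark matches to GCCNNNGGC, the core of the AP-2 site, and to CCAAT, the NF-Y box, on either strand. The CCAAT search was added after the sequences had been seen.
Grhl1, chr12:24572037-24572336, plus strand: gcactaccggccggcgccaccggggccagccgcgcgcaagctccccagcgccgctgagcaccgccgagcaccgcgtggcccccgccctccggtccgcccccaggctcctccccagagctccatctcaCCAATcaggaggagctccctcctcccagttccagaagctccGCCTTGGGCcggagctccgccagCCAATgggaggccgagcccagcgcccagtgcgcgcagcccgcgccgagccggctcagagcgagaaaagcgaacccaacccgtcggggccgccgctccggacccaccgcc
Tfap2a, chr13:40733746-40734045, minus strand: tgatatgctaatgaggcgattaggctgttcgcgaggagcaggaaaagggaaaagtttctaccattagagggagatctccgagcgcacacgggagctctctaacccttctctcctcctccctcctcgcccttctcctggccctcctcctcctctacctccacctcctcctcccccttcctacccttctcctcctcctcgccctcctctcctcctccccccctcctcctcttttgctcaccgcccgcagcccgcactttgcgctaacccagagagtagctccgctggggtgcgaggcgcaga
Grhl3, chr4:135573583-135573882, minus strand: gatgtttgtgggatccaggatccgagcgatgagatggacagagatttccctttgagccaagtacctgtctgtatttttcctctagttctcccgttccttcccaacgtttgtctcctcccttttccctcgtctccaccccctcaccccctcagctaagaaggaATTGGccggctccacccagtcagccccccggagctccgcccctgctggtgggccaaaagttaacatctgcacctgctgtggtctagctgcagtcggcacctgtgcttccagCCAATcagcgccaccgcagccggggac
Tfap2b, chr1:19211804-19212103, plus strand: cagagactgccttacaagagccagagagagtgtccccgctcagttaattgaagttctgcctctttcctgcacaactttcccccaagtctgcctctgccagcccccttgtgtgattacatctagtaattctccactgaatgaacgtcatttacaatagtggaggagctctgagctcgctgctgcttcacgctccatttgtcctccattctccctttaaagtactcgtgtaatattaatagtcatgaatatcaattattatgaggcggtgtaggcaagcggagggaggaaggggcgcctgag

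All 300 bases of the Grhl1 start lay in an open region. They held 35 CpG dinucleotides with a GC content of 75.3%, and 6.95% of the 32851 promoters in the table held as many CpGs, against a median of 7. An AP-2 core (GCCTTGGGC) lay 82 bases before the start, between CCAAT boxes at 123 and 59 bases before it. Of the Tfap2a start shown, the first 189 of the 300 bases as printed lay in an open region, and the window held 15 CpGs (34.6% of promoters held as many). No base of the Grhl3 or Tfap2b start lay in a region. Grhl3 held 12 CpGs and an NF-Y box on each strand, at 88 bases before and 23 bases after the start, and Tfap2b held 8 CpGs and none of the motifs. Over all promoters of the table, 16.6% held the AP-2 core, 37.4% held CCAAT, 2.09% held AACCNGTT, searched for Grainyhead factors, and 2.76% held CCGTTA, searched for OVOL factors. None of the start sites of the 9 genes in the table held a Grainyhead or OVOL match. Each motif was searched on both strands and the match is to letters only. The second start of Tfap2a (11 CpGs), the second start of Grhl1 (0 CpGs) and the starts of Tfap2e (17 CpGs) and Ovol2 (25 CpGs) held no match to any of the motifs. Starts of Tfap2c, Grhl2 and Ovol1 were not analysed here.

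Tfap2a encodes AP-2α, which acts in neural crest, face and epidermis. Of the 9 genes it shared with Grhl2 the largest number of regions, 10, of which 4 lay inside its 24.4 kb. The region at the 5′ end (chr13:40738109-40738533) had a fold of 5.31 and an IDR score of 760, below the lower quartile of the list in fold. Further in, a region at chr13:40733857-40734140 (fold 5.10) overlapped the window of the downstream start printed above, and the strongest region of the gene, chr13:40722696-40723320, lay 15.2 kb from the 5′ end with a fold of 9.69 and an IDR score of 1000. Regions of higher fold than the one at the 5′ end also flanked the gene, with 9.81 at 16.8 kb upstream (chr13:40754812-40755318) and 10.1 at 87.0 kb downstream of the 5′ end (chr13:40651088-40651410). By the median over summits, the fold was 5.91 for the strongest region in the gene and 5.23 for that at 16.8 kb upstream. The farthest region of Tfap2a was 220 kb downstream of the 5′ end and had a fold of 4.91. Among all coding genes, 4.65% held at least 4 regions, and 0.4% of the 500 coding genes closest in length did. Both Tfap2a starts of the promoter table lie inside the outermost 5′ end, by 3318 and 4443 bp. The region at chr13:40733857-40734140 had its midpoint 203 bp from the inner of them, but is counted as distal. For distal regions, of which Tfap2a had 9 by this count, 1.88% of coding genes had as many. Of the 500 genes with the most similar length of sequence nearest to their own 5′ end, 7.6% had as many. The coding neighbours are Gcnt2, 122 kb upstream, and Ofcc1, 450 kb downstream.

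Tfap2c encodes AP-2γ, known from trophectoderm, epidermis and luminal mammary epithelium, and had no region within 1 kb of its 5′ end. Its closest region, chr2:172547204-172547387, lay 1.62 kb inside the gene with a fold of 4.45. The other regions in the gene stood at 3.72 kb (fold 5.39) and at 4.87 kb (fold 6.02, IDR score 1000), so that fold was under the list median in all 3. Beyond the gene, 5 regions lay 57.9 to 116 kb downstream of the 5′ end. The strongest of them, chr2:172643439-172644310, had a fold of 11.9 at the strongest of 3 summits over 872 bp and ranked 3310 of 32011 in the list by that summit. Its other summits had folds of 2.33 and 2.61, so that the median over its summits was 2.61. A weaker region (fold 5.02) followed it after a gap of 291 bp. Its coding neighbour on this side is Bmp7, whose 5′ end lies 395 kb away, and the region at 57.9 kb (fold 8.19) falls in the long non-coding gene Gm36038. For the 8 distal regions of Tfap2c, 2.53% of coding genes had as many, and 8.6% of the 500 genes with the most similar territory, the sequence nearest to a gene's 5′ end.

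Tfap2b, which encodes AP-2β of kidney, neural crest and the ductus arteriosus, had no region at or in the gene. Its 5′ end stood in a stretch of 1.55 Mb without any region, which also held the 5′ ends of Tfap2d, another AP-2 gene, and of the defensin genes Defb18 and Defb41. The closest region lay 566 kb away, and 4.94% of coding genes were as far or farther from a region, against a median of 7.62 kb. The 3 regions counted as nearest to Tfap2b had folds of 7.68, 8.34 and 10.7, the last at chr1:19849868-19850610 and 641 kb from the 5′ end, where the median over its summits was 6.32. The sequence nearer to Tfap2b than to any other coding 5′ end spanned 758 kb, and with regions limited to 100 kb from the 5′ end Tfap2b had 0. Its 3 distal regions came to 0.396 per 100 kb, below the 0.895 of all territories together. Of the 500 genes with the most similar territory, 45.4% had at least as many.

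Tfap2e encodes AP-2ε, known from the olfactory bulb. It had no region at the 5′ end, in the gene or nearest to it, and the stretch without regions around it spanned 75.5 kb. The closest region, 17.4 kb away with a fold of 9.65, was nearer to the 5′ end of AU040320. A gap of this size was common, as 40.7% of coding genes were as far or farther from a region. A count of 0 says only that no region passed the threshold of the peak caller.

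Grhl1 encodes a Grainyhead factor of epidermis and hair follicle that regulates desmosomal cadherins, and had the region of highest fold among the 9 genes. This region, chr12:24571970-24572567, covered the 5′ end, with its midpoint 36 bp inside the gene. It had a fold of 13.2 and an IDR score of 1000 and ranked 1994 of 32011 regions. Its summits had folds of 13.2 and 11.6 and stood 105 bp apart. Across the 8170 regions at coding 5′ ends the median fold was 7.90. Inside the gene a pair of regions 274 bp apart lay at 20.1 kb (chr12:24592038-24592666, fold 8.61, 5 summits) and 21.1 kb (fold 5.47, 4 summits), and another at 28.8 kb (fold 7.67). Upstream, a region at 6.66 kb had a fold of 9.08, and one at 34.1 kb, chr12:24537992-24538331, had a fold of 12.5 and stood inside the neighbouring gene Taf1b. The weakest region, 35.6 kb upstream and also in Taf1b, had a fold of 4.12. The regions at the 5′ end and at 34.1 kb upstream were thus above the upper quartile of the list, 9.32. Grhl1 had 6 distal regions in a territory of 76.4 kb, or 7.85 per 100 kb, whereas all territories together held 0.895 per 100 kb. Of the 500 genes with the most similar territory, 1.8% had as many. The 4 regions in the gene were matched by 3.2% of the 500 genes closest in length.

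Grhl2 encodes the Grainyhead factor of simple epithelia, an activator of Cdh1 and of genes of tight junctions. Its 5′ end region, chr15:37232875-37233444, had a fold of 8.81, an IDR score of 1000 and a midpoint 338 bp inside the gene, exactly at the 5′ end of the long non-coding gene Gm16136, and cannot be given to either gene alone. In the gene, of 131 kb, stood 5 regions with folds of 5.87 to 8.81, a number reached by 2.97% of all coding genes but by 13.4% of the 500 genes closest in length. Upstream, 5 regions lay 34.6 to 112 kb from the 5′ end, and 4 of them were above the list median. The folds of these 4 were 10.8 (chr15:37120356-37120806), 10.3, 10.2 and 8.93, each with an IDR score of 1000, all higher than at the 5′ end itself. Of the 500 genes with the most similar territory, 4.8% had at least the 9 distal regions of Grhl2. Upstream of Grhl2 the closest coding gene is Zfp706, 225 kb away, but long non-coding genes lie between. When genes of every type competed for the nearest region, the distal regions went from 9 to 0 for Grhl2, from 9 to 2 for Tfap2a, from 8 to 3 for Tfap2c and from 3 to 0 for Tfap2b, and did not change for Grhl1, Grhl3 and Ovol1.

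Grhl3, the Grainyhead factor of the epidermal barrier, neural tube closure and wound repair, had no region within 1 kb of its 5′ end and none in its 31.7 kb. Its closest region, chr4:135575117-135575728, had a fold of 6.96 and an IDR score of 1000, with its midpoint 1.79 kb upstream. It fell in the long non-coding gene Gm30888, whose 5′ end lies 52 bp from that of Grhl3. The remaining 2 regions, separated by 419 bp, lay 24.1 kb (fold 4.10) and 24.9 kb (fold 5.55, median over summits 3.14) upstream. All 3 regions of Grhl3 were thus below the list median in fold. All 3 were distal, and 21.4% of the 500 genes with the most similar territory had at least as many. Tfap2c and Grhl3, with regions at 1.62 and 1.79 kb, were the genes just outside the 1 kb limit, and the region of Grhl2 at 338 bp was the farthest inside it. With a limit of 2 kb, 7 of the 9 were counted at the 5′ end, beside 41.4% of all coding genes.

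Ovol1, which drives the exit of epidermal progenitors from the cell cycle, had 3 regions, all upstream. The region at its 5′ end, chr19:5560530-5561236, had a fold of 4.58 and an IDR score of 569, close to the lowest score in the list, 540. It lay inside Ap5b1, a coding gene on the opposite strand whose 5′ end is 325 bp from that of Ovol1, and cannot be given to either gene alone. The next, 7.37 kb upstream and also in Ap5b1, was a wide region of 872 bp with 7 summits and a fold of 4.77. The strongest, chr19:5572396-5572732, stood 12.0 kb upstream with a fold of 6.21. Ovol1 had 2 distal regions in a territory of 20.8 kb (9.61 per 100 kb), and 4.4% of the 500 genes with the most similar territory had as many. The 5′ end of Ap5b1 bounds this territory on 1 side. Both distal regions lay only 325 bp farther from it than from that of Ovol1, and cannot be given to Ovol1 alone. Ovol2, which represses Zeb1 and holds cells in an epithelial state, had 1 region, chr2:144331917-144332272, at its outermost 5′ end. It had a fold of 6.00 and an IDR score of 717, and lay 732 bp before the start site of the promoter table, whose window it did not reach. No region lay in the 26.9 kb of Ovol2, and none was distal.

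**Figure D2:**
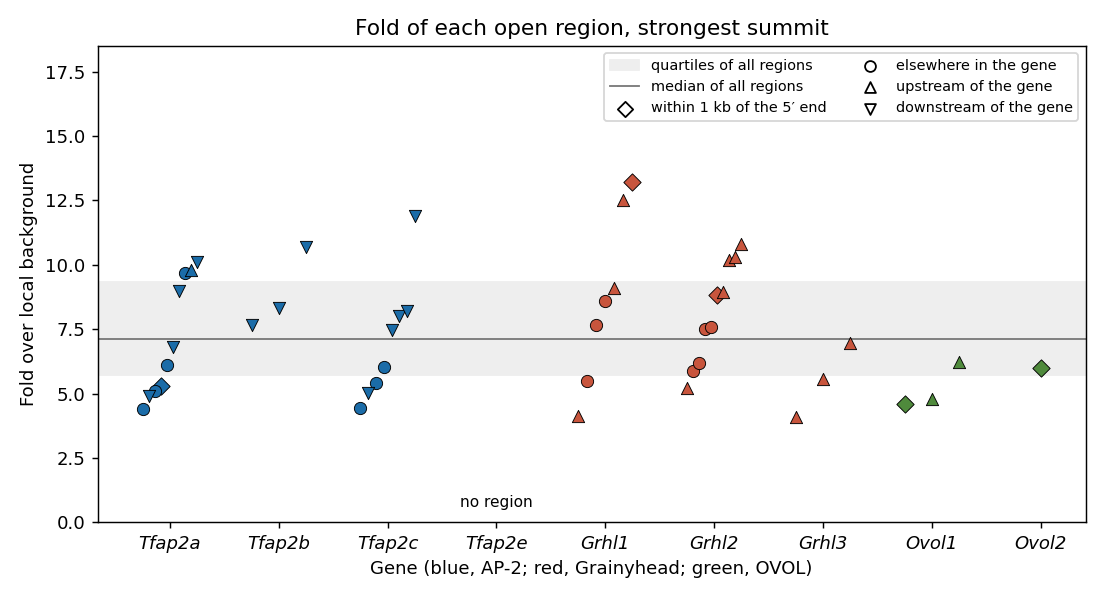
Fold over the local background at the strongest summit of each of the 45 regions nearest to the 9 genes, with the place of each region relative to its gene as the symbol; the line is the median of all 32011 regions and the band their quartiles, and each point is 1 region of a list with no values per sample, so no error is shown. Grhl1 holds the highest fold, 13.2, at its 5′ end, while all 4 regions of Ovol1 and Ovol2 lie below the median.

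Over the 45 regions nearest to these genes, fold ranged from 4.10 to 13.2 with a median of 7.48, and 23 regions were above the median of the list. An IDR score of 1000 was reached by 22 of the 45 (48.9%, beside 45.1% of the list). By family, the median fold was 7.48 over 21 AP-2 regions, 7.62 over 20 Grainyhead regions and 5.38 over 4 OVOL regions. The IDR score was 1000 in 9 of the 21 AP-2 regions, in 13 of the 20 Grainyhead regions and in 0 of the 4 OVOL regions, whose folds of 4.58 to 6.21 were all under the list median. These families were not compared by a test, since regions of 1 gene are not independent and the list holds no values per sample. By place, the median fold was 6.00 at the 5′ ends (5 regions), 6.06 elsewhere in the genes (14), 7.95 upstream (14) and 8.10 downstream of the genes (12). In the list as a whole, the median was 7.90 at coding 5′ ends and lower, 6.87, in the 23756 distal regions. The 5 regions at the 5′ ends are few, and all 12 downstream regions were those of Tfap2a, Tfap2b and Tfap2c. Place and gene thus cannot be told apart in these medians, and the contrast was not tested. In Tfap2a, Tfap2b, Tfap2c, Grhl2, Grhl3 and Ovol1 the region of highest fold lay outside the gene and over 1 kb from the 5′ end. In Grhl1 it lay at the 5′ end, as did the only region of Ovol2.

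**Figure D3:**
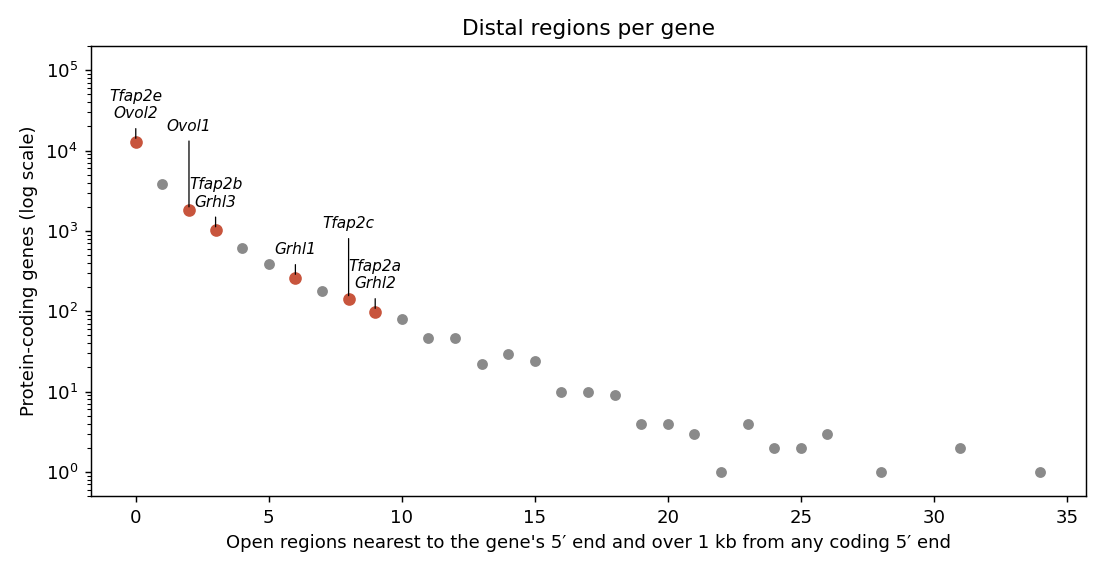
Number of protein-coding genes (log scale) with each number of distal regions, which are nearest to the 5′ end of the gene and over 1 kb from any coding 5′ end; the values of the named genes are in red. Tfap2a and Grhl2 stand at 9 distal regions, Tfap2c at 8 and Grhl1 at 6, whereas Tfap2e and Ovol2 share the value of 0 with the largest group of genes.

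Other members of these families differed among themselves. Of the 5 further genes, Ubp1 (fold 15.0), Tfcp2 (8.66) and Tfcp2l1 (5.53) had a region at the 5′ end, beside 38.3% of all coding genes. All 3 are of the CP2 branch of the Grainyhead superfamily, and Tfcp2l1, a factor of duct cells in kidney and salivary gland, also had 12 distal regions. Tfap2d and Ovol3 had no region of any kind. Among 6 cofactors of AP-2, 4 had an open 5′ end, beside the same 38.3% of all coding genes. They were the coactivators Cited2, Cited4, Ep300 and Crebbp, with folds of 6.10 to 8.12. Cited2 had 25 distal regions. Kctd1 and Kctd15, which inhibit AP-2, had none at the 5′ end, with 5 and 1 regions in the gene.

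Open 5′ ends were found at 8 of 10 genes known as Grainyhead targets, beside 38.3% of all coding genes. They were the adhesion genes Cdh1 (fold 7.77) and Epcam (6.64), the claudins Cldn4 (7.35) and Cldn3 (4.10), the splicing regulator Esrp1 (8.91), the GTPase gene Rab25 (6.23), the protease gene St14 (7.19) and Arhgef19 (7.46). The protease gene Prss8 and the transglutaminase gene Tgm1, of the cornified envelope, had none. Cdh1 held 7 regions in the gene. Among 4 AP-2 targets, those with an open 5′ end were Krt14 (fold 5.43), Erbb2 (6.30) and Egfr (5.37), and Egfr held 15 regions in the gene. Cdkn1a had none there, but 2 regions in the gene.

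Among 4 OVOL targets, Id2 had an open 5′ end (fold 10.1), while Myc, Zeb1 and Zeb2 did not. All 4 had distal regions, beside 40.3% of all coding genes, with 31 at Myc and 17 at Zeb2, the latter reaching a fold of 18.8. Among 6 mesenchymal factors, Snai1 (fold 8.23) and Snai2 (8.66) had a region at the 5′ end, and Zeb1, Zeb2, Twist1 and Prrx1 had distal regions but none at the 5′ end. Among epithelial factors that work beside these families, Klf5 (fold 11.0), Ehf (8.83), Elf3 (7.93) and Klf4 (5.42) had an open 5′ end. Trp63 and Gata3 had none at the outermost 5′ end, with 7 and 1 regions in the gene and 10 and 18 distal regions. Inner start sites of these genes were not examined. These lists are short. Their counts are to be read beside the 38.3% of all coding genes with a region at the 5′ end and the 40.3% with a distal region. The distal counts were not set beside those of genes with a similar territory. The lists were chosen with earlier results of these data known, and are not reported for the stricter sets of regions.

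**Figure D4:**
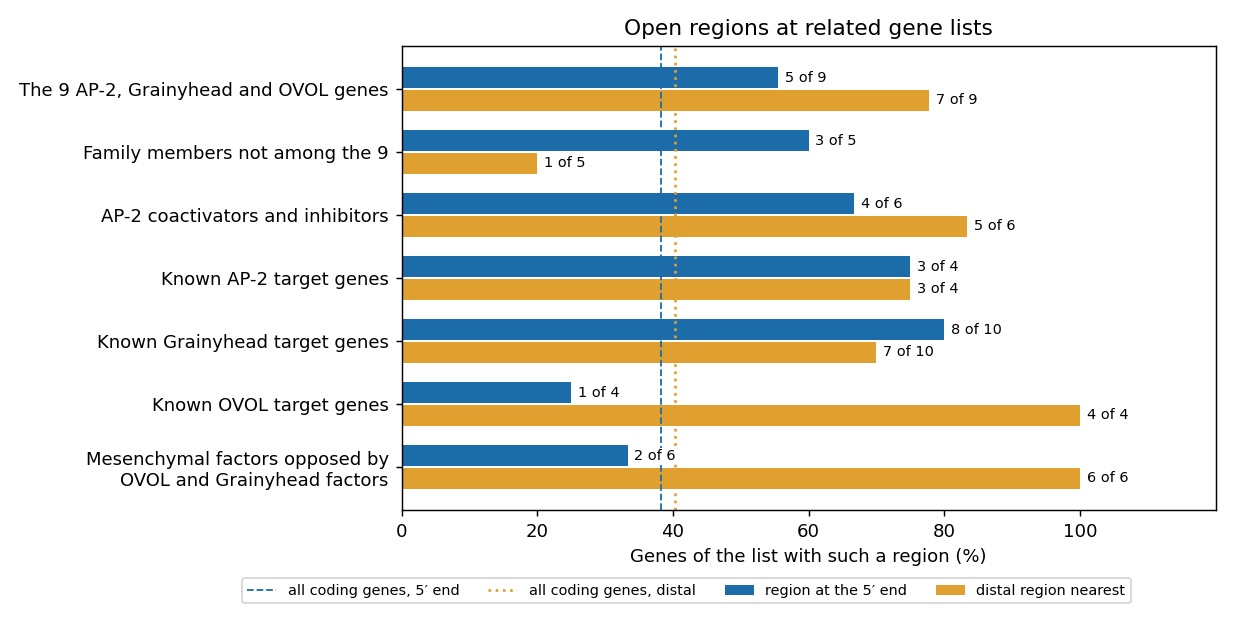
Percentage of the genes of each list with an open region within 1 kb of the 5′ end (blue bars) and with a distal region nearest (yellow bars), with the number of genes beside each bar; the dashed and dotted lines mark the 38.3% and 40.3% of all coding genes. At the 5′ end, Grainyhead targets stand at 8 of 10, mesenchymal factors at 2 of 6 and OVOL targets at 1 of 4, while all 6 mesenchymal factors and all 4 OVOL targets have a distal region.

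As a check of the labelled tissue, 6 of 10 salivary epithelium markers had an open 5′ end, beside 38.3% of all coding genes. Their folds were 2.95 (Krt5) to 7.82 (Sox9). Krt7, Krt18, Krt19 and the acinar water channel gene Aqp5 had none. At the 5′ ends of 5 immune, 4 endothelial, 4 fibroblast and 3 neural markers 0 regions were found. Distal regions were nearest to 1 of the immune, 4 of the endothelial, 3 of the fibroblast and 2 of the neural markers. For salivary markers this number was 6 of 10, beside 40.3% of all coding genes. Regions in the gene were found at 2 of 10 salivary, 0 of 5 immune, 2 of 4 endothelial, 1 of 4 fibroblast and 1 of 3 neural markers. Among all coding genes, 39.5% had a region in the gene. The highest fold nearest to an endothelial marker was 12.2 (Tek), and to a salivary one 11.1 (Sox9). The part of other cell types in the regions described above was not tested.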

How the data were processed

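The ATAC-seq libraries of 4 organoid samples were processed by the authors with the ENCODE ATAC-seq pipeline into 1 deposited list of regions. Its aligner version and filters are not given in the sources used here. The deposited values are, for each summit, an IDR score, a fold (a ratio of signal to local background) and p-values and q-values on a −log10 scale, all made by the authors' peak caller. Scores, folds and q-values served only to describe or filter regions.

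The 69545 lines with shared coordinates were joined into 32011 regions, each with the values of its strongest summit. The submitters' processing notes name GRCm39 and HOMER, but 38.3% of coding 5′ ends in GRCm38.p6 had a region within 1 kb, against 5.04% in GRCm39 and 3.77% after a shift of 50 kb, so that the list was read as GRCm38. Gene ends came from the RefSeq table. Strand came from the RefSeq promoter table for 17492 of 21440 coding genes and otherwise from GENCODE by gene name. Of the 9 genes, 6 matched a promoter entry. Whether a region lies in an exon, an intron or a UTR was not analysed here. Territories are the stretches nearest to a gene's 5′ end among coding genes. No filter on low values was applied.

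The 9 genes and the gene lists were chosen with earlier results of these data known, and the 9 genes are all named. Cell type markers are given by counts with examples. From the list of epithelial partners, 1 gene is not reported here, and that list is given without counts. No test was made, because the list holds no value per sample. Counts at the 5′ end and of nearest regions were checked on simulated regions upstream of genes far from the next coding 5′ end, and all were recovered. Counts in genes, distal counts and genes close together were not part of this check. Python 3.11.15, numpy 2.4.6, pandas 2.3.3 and matplotlib 3.10.9 were used.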

Additional observations from a re-analysis of the deposited data

How the results depend on the processing

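The numbers of regions depended on how strict the list was. In the 16006 regions with the highest q-value evidence, 2 of the 9 genes (Grhl1 and Grhl2) had a region at the 5′ end in place of 5, beside 25.9% of all coding genes, with 8 regions in the genes in place of 16 and 24 nearest regions in place of 45. With an IDR score of 1000, the numbers were 2 genes (24.0% of coding genes), 8 regions in the genes and 22 nearest regions. Counting every line of the list gave 35 in the genes and 102 nearest. Where genes of every type competed, 20 regions were nearest. Less far from the values reported were 38 nearest regions within 100 kb and 19 in the genes by any overlap. At the 5′ end, 5 genes had a region with a limit of 500 bp (35.4% of coding genes), by any overlap (39.1%), at either end of the gene (39.9%) or at any start site of the promoter table (41.0%, added after the data were seen), and 7 with 2 kb. The count for the promoter table includes Grhl2 and Ovol1, which have no start site there, so it does not rest on that table alone. With the median over summits in place of the strongest summit, 5 of 45 regions lost more than 1.5 times in fold, the most at the Tfap2c region 98.2 kb from the 5′ end (11.9 to 2.61), whereas the highest value per gene, which could pass to another region, moved by less in 8 of 8 genes.

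No paired analysis was possible because the list holds no values per sample. Leaving out a sample was not run for want of such values. The comparison of protein sequences was not run. Depth is unknown, and a count of 0 means only that no region passed the threshold of the peak caller.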
